A study of Rattus norvegicus with 34 samples.

Results

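The comparison of the heart of doxorubicin (DOX)-treated rats with peripheral blood mononuclear cells (PBMC) on the arrays that stand on the DOX side was made on 18 of the 34 arrays of the series. Its members were the 9 left ventricle arrays titled doxorubicin treated and 9 PBMC arrays. Of the latter, 8 are titled saline control (saline 1 to 8) and 1 is titled doxorubicin treated (DOX 1). This choice of PBMC arrays follows the study's supplementary gene list and goes against the labels. In that list the PBMC estimates have the sign of a grouping in which these 9 arrays are the DOX samples and the other 8, titled doxorubicin treated 2 to 9, are the controls. The deposited files do not settle which is right, and the PBMC arrays are therefore named here as labelled and called the DOX side and the control side. The choice of PBMC arrays thus rests on expression values, and the 18 arrays were put together as arrays of similar low signal.

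All animals were female Sprague-Dawley rats, 17 in all. DOX was injected once into the peritoneum at 12 mg/kg, the controls received saline, and left ventricle and blood were taken after 48 h. PBMC were separated from whole blood on a density gradient. RNA was amplified to cDNA and hybridized to Illumina RatRef-12 BeadChips, which read 22523 probes. The heart and the blood of the same rats were used, but with the labels in conflict it is not settled which PBMC array belongs to which heart, and the arrays are compared as separate samples. In bulk samples such as these, fewer cells of a type and less RNA per cell cannot be told apart.

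DOX is an anthracycline that binds DNA and topoisomerase II and is known for its toxicity to heart muscle and to blood-forming cells. The identity of a ventricular myocyte rests on the sarcomere, on calcium pumps and channels of the sarcoplasmic reticulum, and on mitochondria that burn fatty acids, and it is kept by factors such as GATA4, NKX2-5 and MEF2. The identity of blood cells rests on surface receptors and their signaling proteins, with lymphoid and myeloid genes kept by ETS family factors, among them PU.1.

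All values are log2 intensities set to 0 at the background of each array, the median of its unexpressed probes, and 1 unit is a 2-fold difference. A gene was taken as read on an array when its probe lay above the 99th percentile of the probes not expressed on that array. The median of the 6760 expressed genes lay between 0.22 and 0.70 on the 9 heart arrays (median of the set 0.44). On the PBMC arrays it lay between 0.30 and 0.77 on 8 arrays, and at 1.46 on saline 4 (median of the set 0.38). The sets overlap, and the difference did not pass a two-sided exact permutation test over all 48620 splits (heart minus PBMC −0.10, p = 0.547, adjusted p = 0.659 over 4 array measures). PBMC saline 4 was not dim like the rest. It lay above the lowest control heart, which had a median of 1.32, and below every control-side PBMC array, of which the lowest had 1.70. The number of probes above the floor was 2852 to 4919 on the heart arrays and 3118 to 6543 on the PBMC arrays, which overlap as well (exact permutation test, p = 0.106, adjusted p = 0.423). The interquartile range of the expressed genes was 0.63 to 1.31 and 0.76 to 2.37, respectively (exact permutation test, p = 0.265). The 22523 probes took only 2804 to 5746 distinct values on any of the 18 arrays, against at least 22196 on every control array. Saline 4 had the most, and the numbers of both tissues overlap (exact permutation test, p = 0.659). Because the 18 arrays were put together as arrays of similar signal, the tests of these 4 measures restate that choice. They are no evidence of equal signal. What coarsened the values was not tested. Nothing in the labels says how the arrays were batched.

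**Figure D1:**
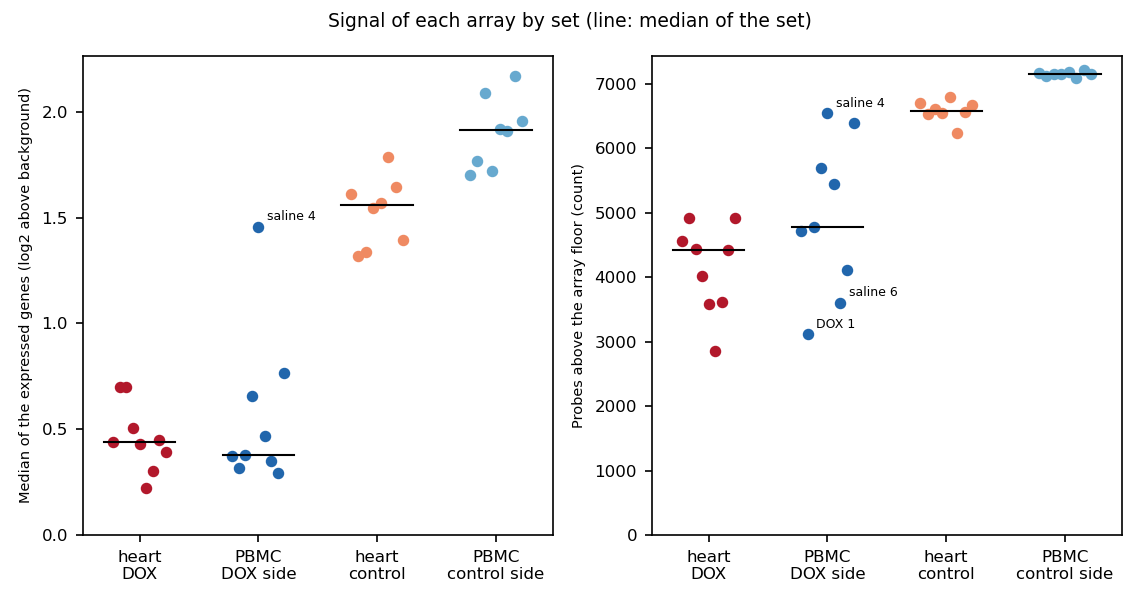
Median log2 intensity of the 6760 expressed genes (left) and number of probes above the array floor (right) for each of the 34 arrays, by set; each point is 1 array and the line is the median of the set. The heart DOX arrays lie between 0.22 and 0.70 and 8 of the 9 PBMC DOX-side arrays between 0.30 and 0.77, with PBMC saline 4 at 1.46.

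The 9 heart arrays resembled each other, with correlations over genes between 0.847 and 0.981, and no heart array correlated with a PBMC array above 0.627. Among the PBMC arrays, those labelled saline 6 and DOX 1 stood apart: their correlation with each other was 0.929, and the median of their correlations within the set was 0.709 and 0.615. Both had few probes above the floor, 3603 and 3118. The main counts, and the differences of genes described as low or high on these arrays, are also given without them.

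The tissue identity of both sets was still readable at this signal. The contrast of heart with PBMC was tested with limma's moderated test over the 6760 expressed genes, and a gene was called when it differed more than 2-fold with a Benjamini-Hochberg adjusted p under 0.05. It called 547 genes higher in the heart (8.09% of those tested) and 989 lower (14.6%), 22.7% together. With p-values set against those of the unexpressed probes, the adjustment that the study's methods describe and here called the empirical adjustment, 428 genes were called, 297 higher and 131 lower, so that most calls then lay on the heart side. The median difference of all genes tested was −0.13. No PBMC array reached any heart array in 434 genes higher in the heart (6.42%) and 522 lower (7.72%), and of these 294 and 385 were also called. Without PBMC saline 4, 609 genes were called higher and 798 lower, and without saline 6 and DOX 1, 564 higher and 1224 lower. With the PBMC arrays grouped as labelled, which takes 8 bright arrays into the PBMC set, 316 were called higher and 3622 lower.

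Lists of genes for the cell types of both tissues were then read against this background. Of 96 genes listed for the myocyte, 78 had a probe and 70 were expressed, and 50 of the 70 (71.4%, against 8.09% of all genes) were called higher in the heart, 0 lower. Of 176 blood cell genes, 143 had a probe and 120 were expressed, and 70 of them (58.3%, against 14.6%) were called lower in the heart and 0 higher. The median difference was 2.16 in the myocyte lists and −1.56 in the blood lists, beside −0.13 over all genes. On the 9 heart arrays, 52 of 78 myocyte genes were read on every array and 16 on none. On the 9 PBMC arrays, 51 of 143 blood genes were read on every array and 23 on none. For all genes tested, the share read on every array was 21.3% in the heart and 18.5% in the PBMC. The counts are a description. Under the empirical adjustment, 43 instead of 50 myocyte and 27 instead of 70 blood genes were called.

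**Figure D2:**
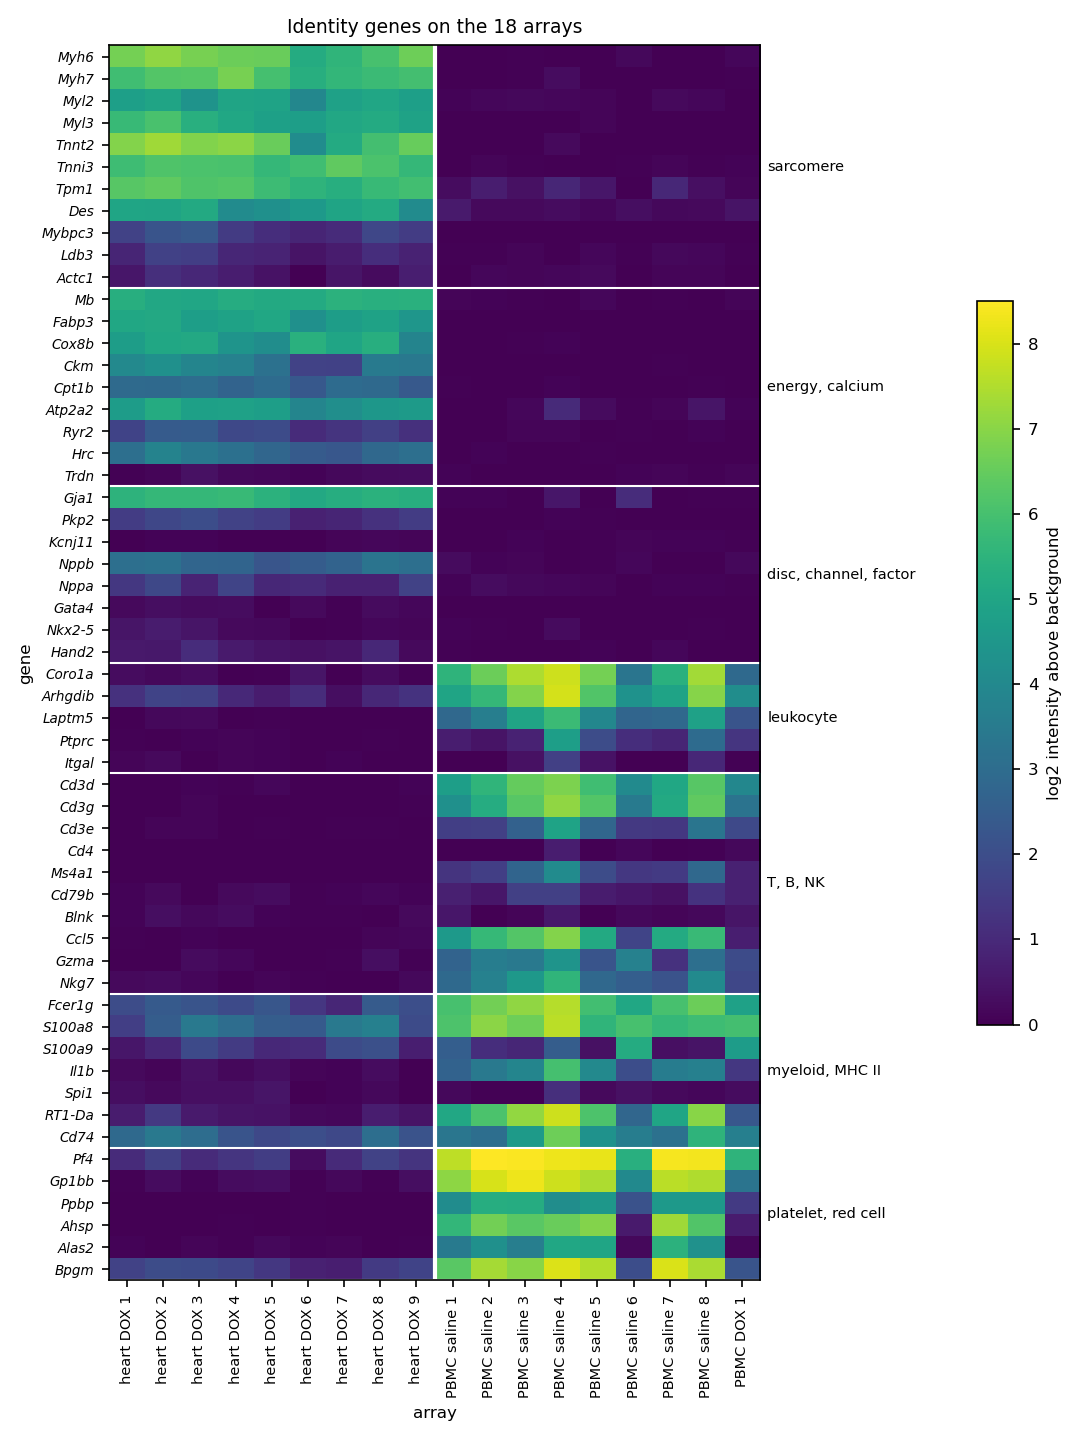
Log2 intensity above background of 56 identity genes (rows, grouped by role) on the 9 heart DOX arrays (left) and the 9 PBMC DOX-side arrays (right, named as labelled); dark is background. Sarcomere and energy genes are bright on the left and leukocyte, T cell and platelet genes on the right, and Gata4, Nkx2-5, Kcnj11, Cd4 and Blnk stay below 0.70 on all 18 arrays.

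The genes of the sarcomere were the firmest sign of the heart. Of 20 expressed genes, 17 were called higher in the heart, 3 were not called, and none was lower. Their median difference was 4.29. On all 9 heart arrays 18 of them were read, and 15 were read on no PBMC array. Myh6, the α-myosin heavy chain of the rodent ventricle, had values of 5.24, 6.58 and 7.10 on the heart arrays (lowest, median and highest) and −0.07 to 0.19 on the PBMC arrays. The sets lie far apart, with a difference of 6.33 ± 0.20 (SE, n = 9 and 9 arrays; limma, adjusted p = 1.18e-14). Since Myh6 was not read on any PBMC array, its fold is a lower bound, the heart mean against the higher of the floor and the value on each PBMC array: at least 58.8-fold. Every fold given as at least some value is such a bound, and a plain difference of a gene not read on one side is a difference from background.

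The troponins and light chains lay as far apart. Tnnt2, cardiac troponin T, had 4.14, 6.57 and 7.30 on the heart arrays and at most 0.20 on PBMC, at least 55.9-fold (difference 6.28 ± 0.33, limma, adjusted p = 2.85e-11). Its lowest value was on heart array 6, which was also the lowest for Myh6 and for Ankrd1, a stress-responsive ankyrin repeat protein of the myocyte nucleus and sarcomere. Tnni3, cardiac troponin I, varied little, from 5.65 to 6.43, and was at least 45.6-fold higher. Myh7, the slow β-myosin, had 5.33 to 6.75 and was at least 45.5-fold higher. Myl3 and Myl2, the ventricular essential and regulatory light chains, were at least 26.9-fold and 19.2-fold higher. Tpm1, α-tropomyosin, was read on 5 of 9 PBMC arrays too, and its difference was 5.49 ± 0.16 with no overlap (limma, adjusted p = 6.12e-15). Tnnc1, troponin C of slow and cardiac muscle, was read on 7 of 9 PBMC arrays at up to 2.68, while the heart arrays began at 5.26.

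Other sarcomere genes were read at a low level. Mybpc3, myosin-binding protein C, had 0.88, 1.51 and 2.36 in the heart against at most 0.01 in PBMC. It was called, with a bound of at least 2.13-fold. Ldb3, a Z-disc LIM protein, was above every PBMC array with 0.44 to 1.63, but its difference of 0.90 ± 0.13 missed the fold threshold. The probe of Actc1, cardiac α-actin, was read on only 3 heart arrays, with values from −0.05 to 1.14, and its mean on the control hearts was 1.20.

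The fuel genes of the myocyte came next. Of 22 genes of oxidative energy supply, 19 were called higher in the heart and 0 lower, with a median difference of 2.62. Mb, myoglobin, the oxygen store of muscle, was the most even of them. Its heart values were 5.03, 5.27 and 5.45, none of the PBMC arrays exceeded 0.15, and the difference was 5.22 ± 0.07 (limma, adjusted p = 5.39e-20), at least 27.5-fold. Fabp3, which carries fatty acids in the cytosol, was at least 20.2-fold higher with 4.27 to 5.12. Cox8b, a muscle subunit of cytochrome c oxidase, had 3.82 to 5.39 and was at least 19.8-fold higher. Lpl, lipoprotein lipase, had 4.92 to 5.45 in the heart and was read on 1 PBMC array, saline 4, at 0.63.

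The enzymes of fatty acid oxidation were read in both tissues. Acadl and Acadm, long- and medium-chain acyl-CoA dehydrogenases, were called higher in the heart (differences of 2.69 and 2.14), yet their PBMC values reached 4.19 and 4.02 and overlapped with the heart. The highest PBMC value of both was on saline 4. Cpt1b, the muscle carnitine palmitoyltransferase, was read on no PBMC array. Ckm, muscle creatine kinase, was uneven in the heart, with 1.64, 3.48 and 4.27. Its low arrays were heart 6 and 7. Cs, citrate synthase, and Idh3a, a subunit of isocitrate dehydrogenase, were higher by less than 2-fold and not called. Ppargc1a, a coactivator of mitochondrial genes, had 0.46 to 1.17 in the heart, above all PBMC arrays, and missed the fold threshold with a difference of 0.82.

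Calcium handling was read in part. Of 8 expressed genes 5 were called higher in the heart. Atp2a2, the calcium pump SERCA2, had 3.88, 4.69 and 5.23 in the heart, and in PBMC it was read only on saline 4 and saline 8, at up to 1.0. Hrc, the histidine-rich calcium-binding protein of the reticulum, was at least 5.74-fold higher. Ryr2, the calcium release channel, was read on all 9 heart arrays (1.04 to 2.46) and on no PBMC array, at least 2.38-fold higher. Trdn, triadin, was read on no array of either set, and neither was Camk2d, a calmodulin-dependent kinase. On the control hearts Trdn had a mean of 1.31. That of Camk2d was 0.51, under the lowest floor of a control heart, 0.53.

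Of 5 expressed genes of junctions and channels, 2 were called higher in the heart, Gja1 and Pkp2. Of 9 with a probe, 2 were read on all 9 heart arrays and 7 on none. Of all genes tested, 21.3% were read on all 9 and 40.2% on none. Gja1, the main gap junction protein of the ventricle, was among the most even heart genes, with 5.15, 5.45 and 5.72, and a difference of 5.30 ± 0.15 (limma, adjusted p = 1.43e-15). In PBMC it was read only on saline 6, at 1.08, and the difference was 5.41 without saline 6 and DOX 1. Pkp2, a desmosome protein, was called with at least 1.94-fold. The potassium channel genes Kcnj11, Kcnd2 and Kcnq1 were read on none of the 18 arrays, with heart values of at most 0.53. On the control hearts their means were 2.42, 1.14 and 1.99.

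None of the listed regulators of the myocyte was called. Of 8 expressed genes of cardiac factors and hormones, 2 were called higher in the heart, and both are hormones. Of all genes tested, 8.09% were called higher. Of the 10 genes with a probe, 5 were read on no heart array, beside 40.2% of all genes tested. Nppb, the B-type natriuretic peptide, had 2.24, 2.78 and 3.25 in the heart and at most 0.24 in PBMC, at least 5.17-fold (difference 2.75 ± 0.12). Nppa, the atrial peptide, had 0.77 to 1.83 and at least 1.68-fold. Gata4 and Nkx2-5, transcription factors that keep the cardiac program, were read on none of the 9 heart arrays, with highest values of 0.31 and 0.64. Hand2, a factor of the developing heart, was read on 3. The means of these 3 genes on the control hearts were 3.26, 2.27 and 2.46. On the DOX arrays none of the 3 was called.

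Small heat shock proteins of muscle were called for 5 of 7 genes. Cryab, αB-crystallin, which binds desmin and titin, was the brightest and most even with 4.31, 4.82 and 5.02, at least 19.6-fold above PBMC. Hspb8 was at least 5.83-fold and Hspb2 at least 2.08-fold higher. Hspb1, a chaperone of stressed cells, was read on 7 of 9 heart arrays with values of 0.50 to 1.18, above all PBMC arrays, and was not called with a difference of 0.82.

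Members of 1 gene family that are used by muscle and by other cells separated the tissues within the family. Of 20 pairs, 15 had both genes expressed. The muscle member was called higher in the heart in 14 of 15 pairs, and the other member was called lower in 7, with 6 pairs called in both directions. The largest such spread was in tropomyosin, where Tpm1 was 5.49 higher and Tpm3, the tropomyosin of non-muscle and slow fibers, 3.29 lower and not read on any heart array, at least 7.36-fold. Among the calcium pumps, Atp2a3, which platelets and lymphocytes use, was 3.37 lower and not read in the heart, at least 6.73-fold. Slc25a5, the adenine nucleotide translocator of dividing cells, was 2.49 lower where Slc25a4 was 3.27 higher. Pygl, the liver-type glycogen phosphorylase, was 2.40 lower and not read in the heart, at least 3.66-fold, where Pygm of muscle was 2.57 higher. In the energy genes Ldha and Cox6a1 were lower by 1.48 and 1.60, and both were read on every array of both sets. The calls of Tpm3, Slc25a5, Pygl, Ldha and Cox6a1 were lost under the empirical adjustment, as were those of Eno3 and Ldhb. Ldhb, the heart-type subunit of lactate dehydrogenase, was counted here as the muscle member, although Ldha is the subunit of skeletal muscle. The exception among the muscle members was Actc1, whereas Actb, β-actin, was 5.18 lower in the heart. Cpt1a and Itpr1 hardly differed, with differences of 0.14 ± 0.24 and 0.01 ± 0.10. These are differences of the same probe between tissues, and the levels of 2 probes are not compared.

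**Figure D3:**
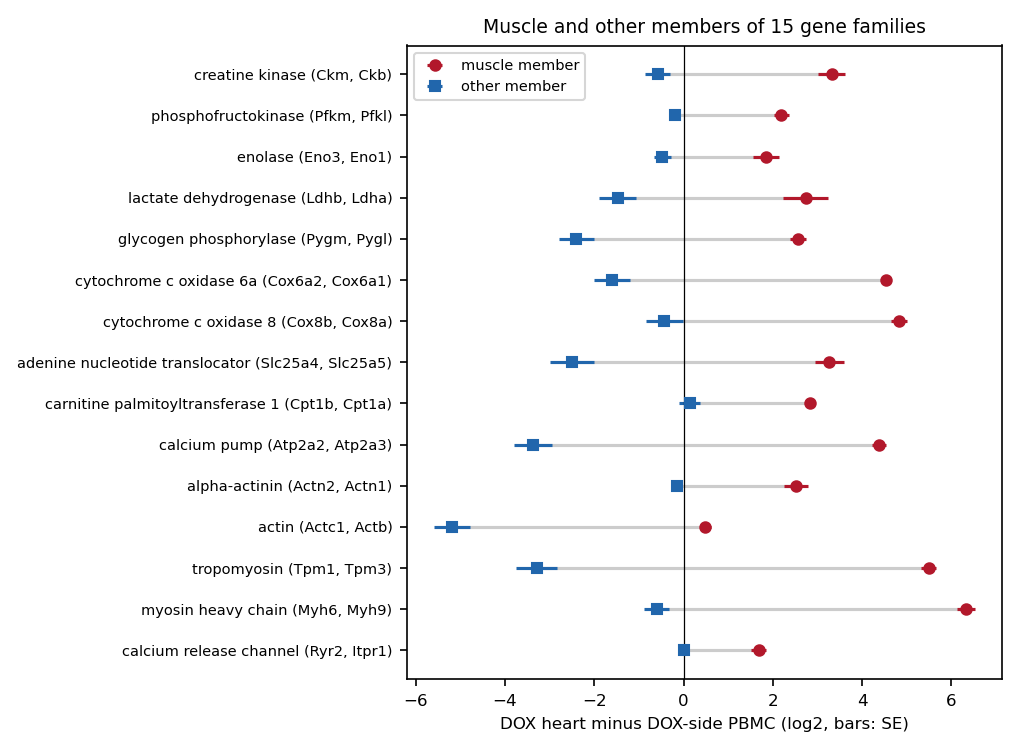
Log2 difference of DOX heart minus DOX-side PBMC for the muscle member (circle) and the other member (square) of 15 gene families, bars give the SE (n = 9 and 9 arrays). The muscle members lie right of 0, from 0.49 (Actc1) to 6.33 (Myh6), and the other members between −5.18 (Actb) and 0.14 (Cpt1a). For lactate dehydrogenase the circle is the heart-type Ldhb.

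The promoters of genes called with no overlap between the sets were searched for short motifs on both strands. The promoters were those of RefSeq on GRCr8, 250 bases before to 50 after the start of a gene, and 27456 could be read, with 1268 of the 1536 called genes among them. The MEF2 site, a motif of muscle genes, was present in 9 of 232 promoters of genes higher in the heart (3.88%), in 0 of 315 of genes lower, and in 0.605% of all promoters. A PU.1 site (GAGGAAGT) was present in 19 of 315 promoters of genes lower in the heart (6.03%), in 3 of 232 of those higher (1.29%), and in 2.44% of all. For all called genes, 446 promoters of those higher and 822 of those lower, the shares were nearer to each other, 2.24% and 0.487% for MEF2 and 2.24% and 4.26% for PU.1. The CArG box was present in 2.16% and 2.54% of the promoters of genes higher and lower, against 1.64% of all. TATAAA was present in 12.9% and 9.21%, against 14.3% of all. The ETS site CCGGAAGT was present in 1.72% and 2.22%, and in 4.01% of all. For all called genes the ETS site was in 5.38% and 7.30%, the CArG box in 1.12% and 1.58% and TATAAA in 10.1% and 9.12%. Among the 5653 promoters of genes tested, the shares were 0.442% for MEF2, 2.69% for PU.1, 1.17% for CArG, 7.48% for TATAAA and 8.61% for ETS. The PU.1 and ETS sites both end in GGAAGT, and the MEF2 site and the CArG box can hold TATAAA, which was the case in 40 of 166 promoters with the former and 13 of 451 with the latter. A match is no sign of binding. None of the 12 largest and 12 smallest differences given below had a MEF2, PU.1 or ETS match in the 10 and 9 promoters at hand. The following promoters of genes from the lists were chosen after their letters were known, to show such sites in genes described here, 4 of the heart and 2 of leukocytes. Capitals mark the motif.
Cox6a2 (chr1:192219667-192219966, minus strand, MEF2 site 50 bases before the start): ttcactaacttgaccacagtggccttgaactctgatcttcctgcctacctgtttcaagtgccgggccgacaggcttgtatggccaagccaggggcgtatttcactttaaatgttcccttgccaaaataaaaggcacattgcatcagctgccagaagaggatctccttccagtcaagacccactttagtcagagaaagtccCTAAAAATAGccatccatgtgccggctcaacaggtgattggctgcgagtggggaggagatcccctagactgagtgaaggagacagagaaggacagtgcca
Myoz2 (chr2:213852729-213853028, minus strand, MEF2 site 53 bases before the start): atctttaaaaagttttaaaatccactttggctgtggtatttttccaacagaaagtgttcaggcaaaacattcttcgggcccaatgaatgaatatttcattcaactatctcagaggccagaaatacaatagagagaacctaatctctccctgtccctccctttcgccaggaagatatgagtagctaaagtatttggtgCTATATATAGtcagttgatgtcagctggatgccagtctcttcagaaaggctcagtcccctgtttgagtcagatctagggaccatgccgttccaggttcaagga
Hspb7 (chr5:159010509-159010808, plus strand, MEF2 site 96 and TATA box 41 bases before the start): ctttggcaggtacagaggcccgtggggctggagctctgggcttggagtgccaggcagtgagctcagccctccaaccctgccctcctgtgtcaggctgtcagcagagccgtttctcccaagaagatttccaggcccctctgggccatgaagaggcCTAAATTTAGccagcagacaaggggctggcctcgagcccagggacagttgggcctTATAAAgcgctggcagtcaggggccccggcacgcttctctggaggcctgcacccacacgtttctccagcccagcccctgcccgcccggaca
Myl3 (chr8:119616844-119617143, plus strand, CArG box 97 bases before the start): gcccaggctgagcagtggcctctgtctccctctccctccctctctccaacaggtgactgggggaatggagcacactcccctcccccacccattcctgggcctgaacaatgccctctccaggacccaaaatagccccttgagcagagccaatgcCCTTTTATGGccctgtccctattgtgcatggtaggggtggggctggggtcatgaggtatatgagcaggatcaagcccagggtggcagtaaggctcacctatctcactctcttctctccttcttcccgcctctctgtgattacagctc
Cd53 (chr2:197087847-197088146, minus strand, PU.1 site 46 bases before the start, reverse letters): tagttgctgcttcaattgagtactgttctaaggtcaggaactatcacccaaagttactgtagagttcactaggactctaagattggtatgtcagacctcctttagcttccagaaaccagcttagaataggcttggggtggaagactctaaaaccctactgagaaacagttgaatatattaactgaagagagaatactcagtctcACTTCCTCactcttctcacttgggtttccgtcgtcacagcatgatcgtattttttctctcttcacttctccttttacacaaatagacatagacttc
Cd37 (chr1:104860735-104861034, minus strand, PU.1 site 79 bases before the start, reverse letters): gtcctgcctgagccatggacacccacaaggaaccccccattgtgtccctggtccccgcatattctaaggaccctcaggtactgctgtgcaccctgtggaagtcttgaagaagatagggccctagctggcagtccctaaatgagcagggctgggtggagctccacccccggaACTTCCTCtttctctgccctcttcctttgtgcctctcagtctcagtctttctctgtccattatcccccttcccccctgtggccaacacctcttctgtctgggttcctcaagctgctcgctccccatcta
Cox6a2, the muscle subunit 6a of cytochrome c oxidase, was at least 16.2-fold and Myoz2, a calsarcin of the Z-disc, at least 18.7-fold higher in the heart, and Hspb7 at least 2.05-fold. The tetraspanins Cd53 and Cd37, which leukocytes carry on their surface, were lower in the heart by 3.50 and 1.75.

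In the blood, platelet genes stood out. All 7 expressed genes were called lower in the heart, with no overlap between the sets, and their median difference was −3.77. Of the 7, 4 were called under the empirical adjustment. Gp1bb, a subunit of the von Willebrand factor receptor, had 3.28, 7.48 and 8.30 on the PBMC arrays and at most 0.33 in the heart, at least 71.2-fold (difference −6.60 ± 0.57, limma, adjusted p = 4.47e-08). Pf4, platelet factor 4, had 5.36, 8.28 and 8.61 in PBMC and 0.27 to 1.69 in the heart, where it was read on 8 of 9 arrays. Ppbp, the platelet basic protein, was not read in the heart and was at least 10.5-fold higher in PBMC. The low PBMC arrays of all 3 genes were saline 6 and DOX 1. Without these arrays the 7 genes were called as well, and the differences were −7.49 for Gp1bb, −7.08 for Pf4 and −4.71 for Ppbp.

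The mean of the red cell list was also lowest on saline 6 and DOX 1, with 1.48 and 1.70 against 2.99 to 4.14 on the other 7 PBMC arrays. Of 16 expressed genes 9 were called lower in the heart, 10 without saline 6 and DOX 1. Ahsp, the chaperone of α-globin, had 0.61 and 0.64 on saline 6 and DOX 1 and 5.64 to 7.28 on the other 7 PBMC arrays. On the heart arrays it was at most 0.04. Its difference was −5.23 ± 0.83 with all arrays (limma, adjusted p = 6.09e-05) and −6.54 without these 2, and since it was not read in the heart the fold was at least 23.8. Alas2, which starts heme synthesis in red cell precursors, behaved alike, with 0.19 and 0.16 on these arrays and 3.51 to 5.47 on the other 7, and so did Bpgm, bisphosphoglycerate mutase, with 2.01 and 2.20 against 6.33 to 8.07. Their differences were −3.43 and −4.74, and without these 2 arrays −4.39 and −5.91. Only 3 red cell genes were called under the empirical adjustment, and Ahsp, Alas2 and Bpgm were not among them. Hba-a1, Hbb and Hbb-b1, globin genes with near-identical copies that probes may not separate, were read on every array of both sets and were 4.60, 4.54 and 5.09 lower in the heart. On saline 6 and DOX 1 they fell less than Ahsp. Hba-a1 had 6.28 and 6.93 there against at least 8.06 on the other 7, and Hbb 5.66 and 6.02 against at least 7.63. Heart tissue holds blood, and its part in the heart's globin values was not tested.

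The genes common to leukocytes were called for 16 of 20, and for 8 under the empirical adjustment. Coro1a, coronin of the leukocyte actin network, had 2.91, 6.60 and 7.85 in PBMC and at most 0.49 in the heart, where it was not read, at least 38.6-fold (difference −5.72 ± 0.57, limma, adjusted p = 2.43e-07). Its lowest PBMC values were on saline 6 and DOX 1, without which the difference was −6.52. Laptm5, a lysosomal protein of lymphocytes, was not read in the heart either and was at least 8.83-fold higher in PBMC. Ptprc, the common leukocyte antigen CD45, was read on all 9 PBMC arrays, but at only 0.43 on the lowest and 1.11 on the median array. Its highest value, 4.76, was on saline 4, and the difference of −1.63 ± 0.44 was called. Itgal, the integrin LFA-1 chain, was read on 4 PBMC arrays, and its difference of −0.35 was not called. Rgs1, a regulator of G-protein signaling of activated lymphocytes, and Ikzf1, the factor Ikaros, were above the heart on every PBMC array, with highest values of 1.28 and 0.91, and missed the fold threshold.

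The T cell was read through its antigen receptor. Of 19 expressed genes 11 were called lower in the heart, with a median difference of −1.35, and 5 were called under the empirical adjustment. Cd3d and Cd3g, chains of the CD3 complex, had 3.94, 5.56 and 6.83, and 3.24, 5.25 and 7.10, in PBMC, and neither was read in any heart. Their bounds were at least 27.9-fold and 25.1-fold. Cd247, the ζ chain, and Lat, its adaptor, were at least 9.30-fold and 7.72-fold higher in PBMC, and Cd8a, the coreceptor of cytotoxic T cells, at least 5.42-fold. Cd3e, the ε chain, was lower in the heart by 2.36. The coreceptor Cd4 was read on 1 PBMC array only, saline 4 at 0.67, and Cd28, the costimulatory receptor, on none, while the control-side means were 2.12 and 1.56. Both were called lower in the heart on the control arrays.

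Cytotoxic genes were called for 8 of 16, and for 3 under the empirical adjustment. Ccl5, a chemokine of T and NK cells, ranged from 0.73 on DOX 1 and 1.75 on saline 6 to 6.91 on saline 4, and was not read in the heart, at least 16.4-fold (difference −4.69, and −5.67 without saline 6 and DOX 1). Nkg7 and Gzma, of the cytotoxic granule, were at least 6.62-fold and 4.92-fold higher in PBMC, and Klrd1, a receptor chain of NK cells, at least 5.90-fold. Gzmb, granzyme B, was read on 8 PBMC arrays and on 6 heart arrays, and did not pass the test (difference −0.46 ± 0.27). Ifng, interferon γ, was read on no array.

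Few B cell genes were called. Of 10 expressed genes 1 was called lower in the heart, beside 14.6% of all genes tested. In 4 of the 10 every heart array lay below every PBMC array, beside 7.72% of all genes. The gene called was Ms4a1 (CD20), with 0.79, 1.57 and 4.11 in PBMC and no reading in the heart, at least 2.61-fold. This call was lost under the empirical adjustment. Cd79b, a signaling chain of the B cell receptor, was read on 8 of 9 PBMC arrays and above all hearts, but its difference of −0.77 ± 0.16 missed the fold threshold. Blk, a B cell kinase, and Cd72, a B cell coreceptor, were read on no PBMC array, and Blnk, the adaptor of the receptor, on 1. On the control-side PBMC arrays 9 of the 10 genes were called. All 9 differed between the tissues by less on the dim arrays (limma over all 34 arrays, adjusted p under 0.05).

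Myeloid genes were called for 6 of 16 on the monocyte list and 6 of 8 on the neutrophil granule list, and for 1 and 2 under the empirical adjustment. Fcer1g, the common γ chain of Fc receptors, had 4.87, 6.04 and 7.57 in PBMC and 0.90 to 2.43 in the heart, 4.26 lower. S100a8, a subunit of calprotectin, had 5.56, 6.03 and 7.63 in PBMC and 1.57 to 3.69 in the heart, 3.54 lower with no overlap (limma, adjusted p = 6.23e-08). On the control side its PBMC mean was 1.74. Its partner S100a9 did not follow. It was above 4 only on saline 6 and DOX 1, with 5.25 and 4.71, had 0.36 to 2.54 on the other 7 PBMC arrays and 0.51 to 2.08 in the heart, and was not called (difference −0.74 ± 0.62, adjusted p = 0.324; 0.11 without these 2 arrays). Il1b, the cytokine IL-1β, was at least 6.86-fold higher in PBMC. Fcnb, ficolin B of granulocyte precursors, had 0.05 on DOX 1 and up to 5.95 on saline 4 (difference −3.30, and −3.93 without saline 6 and DOX 1). Mmp8, Il1r2 and Ccr1, of neutrophils and monocytes, were called lower in the heart by 1.28, 1.74 and 2.03, and their mean on the control-side PBMC arrays was only 0.23, 0.88 and 0.75. The call of Mmp8 was lost when 1 array, saline 4, was left out. Spi1, which encodes PU.1, was read on 1 PBMC array and on no heart, and Cd14, the monocyte receptor for endotoxin, on 5 PBMC arrays without a call.

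Antigen presentation was read through class II of the major histocompatibility complex, with 6 of 8 genes called lower in the heart, 7 without saline 6 and DOX 1, and 1 under the empirical adjustment. RT1-Da had 2.31, 6.09 and 7.85 in PBMC and at most 1.40 in the heart (difference −4.93 ± 0.61, limma, adjusted p = 3.91e-06). Cd74, the invariant chain, was read on all 18 arrays and its sets overlapped, with a difference of −1.71. The lowest RT1-Da values in PBMC were again on DOX 1 and saline 6, and without them its difference was −5.77.

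**Figure D4:**
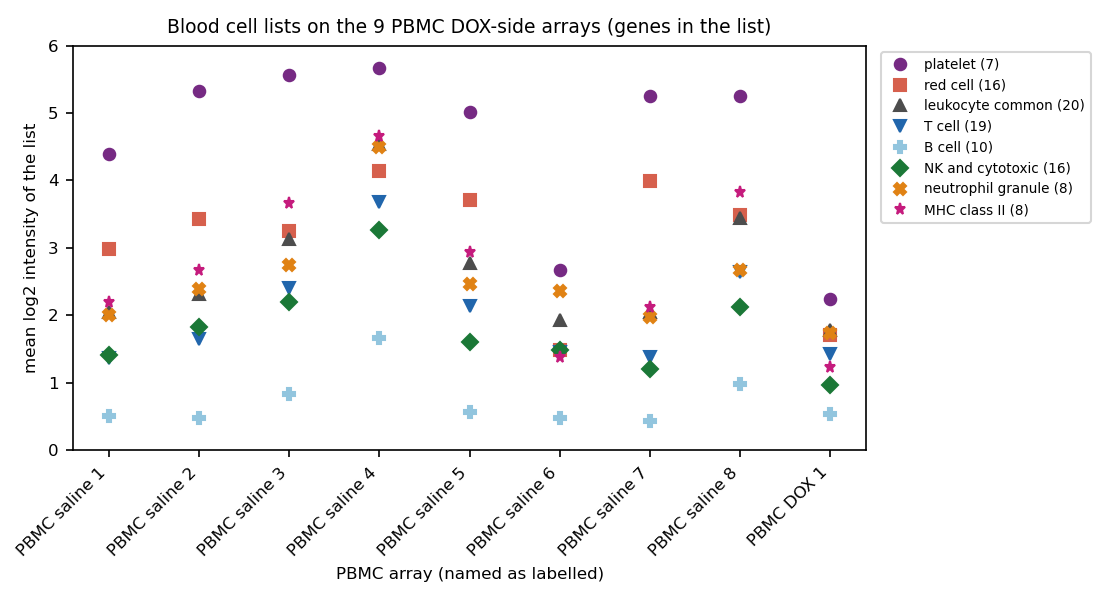
Mean log2 intensity of the expressed genes of 8 blood cell lists on each of the 9 PBMC DOX-side arrays (named as labelled); each symbol is 1 list, with the number of genes in the key, and a list is to be compared between arrays only. The platelet list has 2.67 and 2.25 on saline 6 and DOX 1 and 4.40 to 5.66 on the other 7 arrays, the B cell list lies between 0.43 and 1.67, and all 8 lists are highest on saline 4.

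The other cell types that the samples could hold were looked at in the same way. Fibroblast and matrix genes were called higher in the heart for 9 of 19 and lower for 1, beside 8.09% and 14.6% of all genes tested. Sparc, a matrix protein, had 2.86 to 4.62 in the heart and was at least 10.5-fold higher, Mgp, the matrix Gla protein, at least 8.04-fold and Dcn, decorin, at least 5.66-fold. The 1 lower gene was Fn1, fibronectin, which platelets and monocytes also make. Of 14 endothelial genes, 3 were called higher in the heart, Emcn, Tek and Esam, and 3 lower, beside the same 8.09% and 14.6%. The lower ones were Vwf, Aqp1 and Icam2, which platelets, red cells and leukocytes also carry, respectively. Every heart array lay above every PBMC array in 5 of the 14 genes and below in 0, so the 3 lower genes overlapped. Esam lost its call without saline 6 and DOX 1, when 2 genes were called higher, and also without any 1 of 8 single arrays. No endothelial gene was called lower under the empirical adjustment. Tissue macrophage genes were called in 0 of 7. By adjusted p alone 6 of them passed limma's test, all higher in the heart, among them Cd163, which was above every PBMC array at 0.51 to 1.25. Skeletal muscle genes were called in 0 of 4 expressed, and in 1 of the 4 every heart array lay below every PBMC array. Of 13 with a probe, 12 were read on no heart array and 10 on no PBMC array. Myh2, Myh4, Myod1 and Pvalb were read on no array of either set. Over all genes measured, the mean of that list was 0.04 to 0.15 on the heart arrays and 0.07 to 0.16 on the PBMC arrays.

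Genes often used as references were not level between these sets. Of 17 measured, 12 were called lower in the heart and 1, Sdha of complex II, higher, with a median difference of −2.35. Actb had 0.35, 1.84 and 2.84 in the heart and 5.19, 6.93 and 8.16 in PBMC. Gapdh and Pgk1, of glycolysis, were 1.70 and 1.43 lower with overlap, and Hprt1 differed by −0.19 ± 0.39. Under quantile normalization 7 instead of 12 were lower, and under the empirical adjustment 4. Over all 6760 genes, 1252 were read on every PBMC array and 1440 on every heart array, whereas 40.2% were read on no heart and 19.8% on no PBMC array. For these last shares a reading on 1 array is enough to take a gene out. PBMC saline 4 and saline 8 alone read 4879 and 4698 of the genes, against at most 3393 on a heart array. The part of these arrays in the lower PBMC share was not tested.

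The genes at the ends of the contrast were the following. The 12 largest differences without overlap were those of Myh6, Tnnt2, Myh7, Tnni3, Tpm1, Gja1, Myl3, Mb, Lpl, Fabp3, Ankrd1 and Cox8b, all of them from the myocyte lists. They ran from 6.33 down to 4.82. The 12 smallest were Npy, Gp1bb, Pf4, Plac8, Coro1a, Tax1bp1, Cd3d, Cd3g, Ahsp, Actb, Ypel5 and Hbb-b1, from −7.51 to −5.09. Npy, neuropeptide Y, which rat platelets and their precursors hold, had 4.80 and 5.15 on saline 6 and DOX 1 and 7.86 to 8.83 on the other 7, and was read on 1 heart array. On saline 3, 5, 7 and 8 no probe was brighter than that of Npy. Its difference was −7.51 ± 0.51 (limma, adjusted p = 1.59e-09) and −8.30 without saline 6 and DOX 1. It was thus measured from near the background in the heart to the top of the scale in PBMC, and its size and first rank hold only within that range. Plac8, a cysteine-rich protein of leukocytes, was 6.20 lower in the heart. Among the highest means, Akr1c12, an aldo-keto reductase, and Atp5mg, a subunit of ATP synthase, stood at 6.89 ± 0.63 and 6.79 ± 0.30 (SD, n = 9) in the heart and were 1.16 and 1.66 higher there. The call of Akr1c12 was lost when heart array 6 or PBMC saline 3, 5 or 8 was left out. Hba-a1 and Fth1, the ferritin heavy chain, stood at 8.12 ± 0.90 and 7.94 ± 0.96 in PBMC, with B2m, Tpt1 and the ribosomal genes Rpl9 and Rps18 also among them. B2m, the light chain of class I molecules, was 4.0 lower in the heart.

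Some bright genes differed little between the tissues. The brightest with a 95% interval of the difference within 1 unit of 0 were Arf5, Ndufa1, Laptm4a, Atp6v1g1, Ap2s1 and Nop53, which serve vesicle traffic, complex I, the lysosome, the proton pump, endocytosis and the nucleolus. Ndufa1 had 5.01 to 5.75 in the heart and 4.19 to 6.52 in PBMC, with an interval of −0.68 to 0.42. Under quantile normalization all 6 were higher in the heart, by 0.91 to 1.69, so that how near they lie to 0 depends on the scaling. Arf5 was lower in the heart by less than 2-fold, with a difference of −0.51 and an interval of −0.86 to −0.16 (limma, adjusted p = 0.017). Without saline 6 and DOX 1 its difference was −0.60 (adjusted p = 0.0059) and that of Ndufa1 −0.49 (adjusted p = 0.013).

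Which genes and probes were tested was set by the average over all arrays, the dim ones included. Identity genes chosen among them are therefore not fully independent of the dim arrays. They were called on the 8 control hearts and the 8 control-side PBMC arrays, whose values the tissue contrast above did not use. Between these, 1084 genes were called higher in the heart (16% of those tested) and 2016 lower (29.8%). On the dim arrays 392 of the 1084 (36.2%) were still called higher, 684 were not called and 8 were called lower. Of the 2016 blood genes 735 (36.5%) were still called, 1275 were not and 6 were called the other way. Without saline 6 and DOX 1, 34.8% of the heart and 40.6% of the blood genes were still called, and 22 and 14 were called the other way. Among genes with a control fold over 8, 170 of 224 heart genes (75.9%) and 228 of 288 blood genes (79.2%) were still called. The share rose with the control level. For heart genes with a control mean under 2 it was 13.1%, between 2 and 4 it was 26.5%, between 4 and 6 it was 57.9%, and from 6 upward 74.6%. For blood genes it was 6.94%, 23.0%, 63.9% and 92.5% in the same ranges. Of all genes tested, 8.09% were called higher in the heart on the dim arrays and 14.6% lower, so that the lowest range of blood genes lay below the share of all genes. Reading on every array rose alike, from 12.3% to 98.2% of the heart genes and from 1.94% to 95.9% of the blood genes. Among all genes tested these shares were 21.3% in the heart and 18.5% in PBMC, above the lowest range of either tissue.

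**Figure D5:**
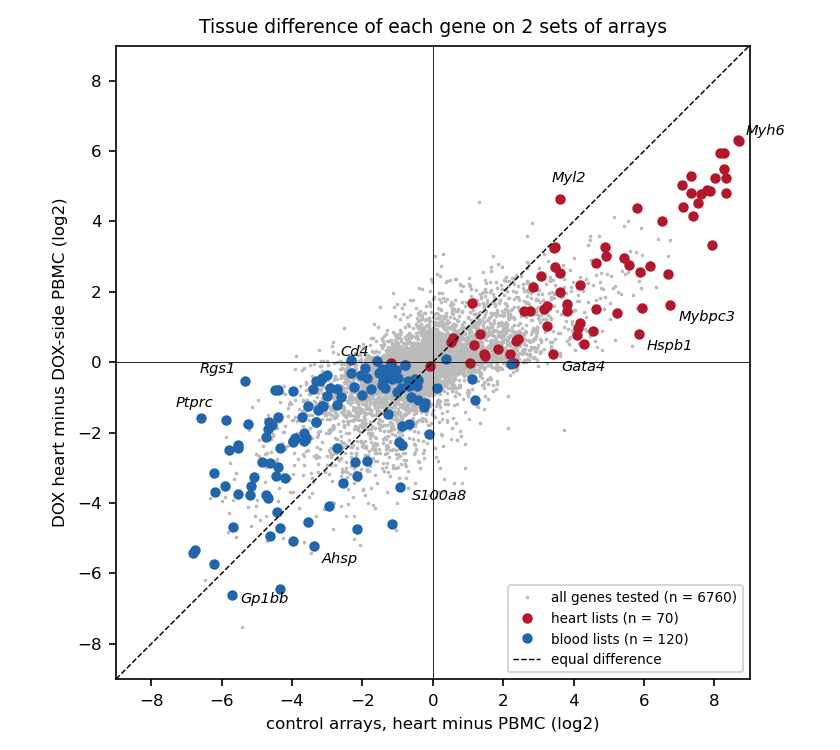
Log2 difference of heart minus PBMC of 6760 genes on the 16 control arrays (horizontal) and on the 18 dim arrays (vertical); 70 expressed genes of the myocyte lists in red, 120 of the blood lists in blue, and the dashed line marks equal differences. Most list genes lie nearer 0 on the dim arrays, Myl2 lies above the line, and Gata4, Rgs1 and Cd4 lie near 0 on the vertical axis.

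The size of the contrast differed between the 2 sets of arrays for 4091 genes (60.5%, adjusted p under 0.05 in a limma fit of the 34 arrays together). Heart minus PBMC was higher on the dim arrays for 2529 (37.4%) and lower for 1562 (23.1%). Under quantile normalization the balance turned, with 1515 genes higher on the dim arrays and 2243 lower. Over all genes the SD of the differences was 1.09 on the dim and 1.65 on the control arrays, and the differences correlated at r = 0.714 across genes, which are not replicates. In the myocyte lists 60 of 70 genes had a smaller heart excess on the dim arrays and 3 a larger or less negative one. The third was Mef2d, a factor read on no array of the dim sets. Of the other genes, Myl2 had a difference of 4.64 against 3.60 (adjusted p of the change 1.55e-06) and Ryr2 of 1.68 against 1.11 (adjusted p = 0.0185). Among those with a smaller excess were Mybpc3 and Hspb1, with 5.11 and 5.03 units less. In the blood lists 75 of 120 genes had a smaller PBMC excess and 14 a larger one. The latter included the neutrophil genes S100a8, Camp, Mmp8 and Il1b, the monocyte gene Ccr1, the platelet gene Pf4, and Bpgm and Hba-a1 of red cells. S100a8 differed by 2.61 units more (adjusted p = 6.46e-05) and Ccr1 by 1.93 units more. Cxcr4, a chemokine receptor of lymphocytes, differed by 5.0 units less. Pdk4, a kinase that turns muscle toward fat as fuel, and Tek, an endothelial receptor, had nearly the same contrast on both, 3.23 and 3.45, and 1.70 and 1.71.

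A few genes changed sides. On the dim arrays 6 genes were called higher in the heart that had been called lower on the control arrays, Ubr4, Rnf20, Ncl, Ccnl2, Ppp1r2 and Ier5. Ubr4 and Rnf20 are ubiquitin ligases, Ncl is nucleolin and Ccnl2 a cyclin of splicing. Ubr4 had 3.37 to 4.48 in the heart and, in PBMC, 3.04 to 4.11 on saline 1, saline 6 and DOX 1 against 0.73 to 2.48 on the other 6. Its difference was 1.97 ± 0.44, and −1.14 on the control arrays. In the opposite direction 8 genes were called, of which Aqp1, Selenbp1, Blvrb, Lgals1, Procr and Ephx1 had the largest differences. Aqp1, the water channel of endothelium and red cells, had 0.50 to 2.25 in the heart, about 0 on saline 6 and DOX 1 and 2.83 to 5.12 on the other 7 PBMC arrays, a difference of −1.92 ± 0.65 against 3.73 on the control arrays. Selenbp1 and Blvrb, the latter biliverdin reductase B of red cells, had the same pattern over the PBMC arrays. All 12 named kept their call without saline 6 and DOX 1, with larger differences, 2.52 for Ubr4 and −2.85 for Aqp1, and the counts of opposite calls rose from 6 to 14 and from 8 to 22. The call of Ncl was lost without any 1 of 8 single arrays and that of Ier5 without any 1 of 5. All 12 calls were lost under the empirical adjustment.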

How the data were processed

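RNA of left ventricle and PBMC was read on 34 Illumina RatRef-12 arrays, 17 per tissue. The authors deposited log2 intensities, centred per array on the median over all probes. The median of the 13137 unexpressed probes was then taken as the 0 of an array. Expressed probes were those with an average over all arrays above 0.1524, the limit that separates the probes listed as expressed in the study's supplementary list. Of 22523 probes 13793 carry 1 gene symbol and 8730 none, and for a gene with several probes that of the highest average was kept, which gave 6760 genes tested. The deposited raw intensities, 34 value columns whose names match no sample label, were not used. The number of arrays limits the precision.

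The sets were compared with limma's moderated test without a block, in the 18 arrays alone, with Benjamini-Hochberg adjustment over all genes. Whether arrays of a set come from separate animals rests on the study's methods, and the p-values measure the spread between arrays. In simulated data of 6760 genes with 200 shifted, 89.5% were recovered with 1 false call at a log2 shift of 1.5, and 100% with 4 false calls at 3. How many of the calls on the 18 arrays are false was not tested. On these arrays the SD of a gene could differ between the sets. Ahsp had an SD of 0.06 in the heart and 2.64 in PBMC, and Myh6 of 0.61 and 0.09. Under the empirical adjustment 428 instead of 1536 genes were called. Tests were run in limma 3.58.1 under R 4.3.3 and in scipy 1.17.1, with pandas 2.3.3, numpy 2.4.6 and matplotlib 3.10.9 under Python 3.11.15. Genes named were those of the cell type lists and gene pairs, the 12 largest and 12 smallest differences without overlap, the 8 highest means of each set, up to 6 opposite calls a direction, and the 6 brightest genes with an interval within 1 unit of 0. The members and lists were chosen with earlier results of these data known. The alternatives were other normalizations, filters, probe rules, fits, thresholds and sets of arrays.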

Additional observations from a re-analysis of the deposited data

Results flagged for a closer look

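In 112 groups of 9 arrays, 9 had an array whose gap to the nearest of the others exceeded 0.493 of the whole range, and chance gives about 1 in 20. PBMC saline 4 was the highest array in the median of the expressed genes (0.594 of the range), in Tnnt2 (0.653), Lpl (0.585), Myh7 (0.546) and Atp6v1g1 (0.5), and the lowest in Ankrd1 (0.549). Tnnt2, Myh7 and Ankrd1 were not read on any PBMC array, so that these gaps lie within the background. Heart array 6 was the lowest in Pf4 (0.518) and Slc25a4 (0.511), and heart array 5 in Cd3g (0.498), which was not read in the heart.

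The tissue contrast differed between the dim and the control arrays, by limma's test of the difference over all 34 arrays, for the 12 genes named above as called in opposite directions. These genes were chosen for opposite calls on the 2 sets of arrays, so that the test restates the choice and the values are a description. Heart minus PBMC was larger on the dim arrays by 3.11 for Ubr4, 3.07 for Ccnl2, 2.75 for Ier5, 2.67 for Ncl, 2.66 for Rnf20 and 2.39 for Ppp1r2. The change was −5.66 for Aqp1, −4.0 for Selenbp1, −3.05 for Blvrb, −2.77 for Procr, −2.62 for Lgals1 and −2.58 for Ephx1.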

How the results depend on the processing

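Of 9890 values of 301 named genes under the alternatives, 9466 kept direction and side of the threshold, 180 were no longer past it, 212 came past it and 32 changed sign. With the PBMC arrays grouped as labelled, 3938 genes were called, 316 higher and 3622 lower, and there Acadm (−0.24), C1qb (−1.15), Ccnl2 (−1.45), Cd28 (−1.20), Cd72 (−2.0), Cpt1a (−1.61), Hadha (−0.32), Ier5 (−0.35), Itpr1 (−1.43), Lyve1 (−2.25), Ncl (−1.08), Rnf20 (−0.40), Ubr4 (−0.41) and S100a8 (0.52) changed sign. This set holds 8 bright PBMC arrays against dim hearts. Under quantile normalization Ap2s1 (1.06), Arf5 (1.08), Atp6v1g1 (1.13) and Ndufa1 (1.51) changed sign, 682 genes were called higher and 786 lower, and the contrast was higher on the dim arrays for 1515 genes and lower for 2243, against 2529 and 1562. With p-values set against the probes not expressed, 428 genes were called, 297 higher and 131 lower, with 43 of the myocyte and 27 of the blood lists, and 86 of the 301 named genes lost their call. With adjusted p alone 3588 were called, 1435 higher and 2153 lower. Array weights gave 699 higher and 886 lower. With a control fold over 8, 75.9% of the heart and 79.2% of the blood genes were still called. The cause of these shifts was not tested.

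Leaving out 1 array at a time gave 1407 to 1644 genes called, 501 to 609 higher and 798 to 1095 lower, with 49 to 51 of the myocyte and 67 to 74 of the blood lists. In all such fits 286 of 301 genes kept their side. The exceptions were Akr1c12, Cd8b, Cst7, Cybb, Epb42, Esam, Fhl2, Ier5, Klf1, Mmp8, Ncf1, Ncl, RT1-DOb, Smpx and Trat1.

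The study's methods number samples by rat, but same-numbered arrays did not deviate together: the correlation was −0.18 to 0.21 over numbers 1 to 8 and −0.10 to 0.14 as labelled. With the replicate number as a block, 555 genes were called higher and 1092 lower over numbers 1 to 8, and 3938 as labelled, 316 and 3622. Both tissues are balanced over the numbers, so the block cannot change the difference of a gene on the same arrays. As labelled, the same genes therefore had to change sign, which is no test of the pairing.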
